A study of Homo sapiens with 72 samples.

Results

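The 4 wells described here held wildtype normal human dermal fibroblasts, primary connective tissue cells of the skin, that had been given omaveloxolone at 10 µM for 24 hours. They were wells K13, K3, L13 and L3, biological replicates 1 to 4 in the labels, out of 72 wells, and they were chosen by their label alone. They were compared with 32 wells of the same cells given only the solvent DMSO, which lay in plate columns 2 and 23 across all rows. Wells at 3.33 and 1.11 µM, 4 of each, stand beside them where a dose is needed for scale. All wells came from 1 catalogued source of cells seeded in a multiwell plate, so p-values measure the spread between wells. A plate should hold 16 DMSO wells by the protocol, but 32 wells are labelled so, and the comparison rests on all of these.

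Omaveloxolone, a semi-synthetic triterpenoid, acts on KEAP1, an adaptor of a ubiquitin ligase. KEAP1 normally keeps NRF2, a transcription factor of antioxidant genes, short-lived, and NRF2 accumulates when KEAP1 is blocked. DRUG-seq adds a well barcode to polyadenylated RNA in the lysate during reverse transcription, pools the wells and reads 3′ ends, so each well's counts depend on how much RNA its lysate gave. Fibroblasts are known for their intermediate filament vimentin, their actin cytoskeleton and their secreted collagens, and like all growing cells they hold abundant, stable mRNAs for ribosomal proteins.

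The well barcode ties each count to its well, and here the wells hold few counts. The barcodes of the 4 wells are shown with their distance from those of the other wells.
Well K13: actactcgtgtcga
Well K3: ccgcaaccaaggca
Well L13: ctcgctgatagcac
Well L3: tacatatgcatgac
Each barcode is 14 bases long, and each differed at 6 or more positions from the barcode of every other of the 72 wells. Each had at least 1 other well at 6 differences, the smallest number between any of the 72 barcodes (median 10, highest 14). The nearest wells of L13 and L3 were the DMSO wells J2 and E23. Whether counts crossed between wells was not tested.

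Very little RNA was read from these wells. The totals were 28189 counts in K13, 39396 in K3, 25635 in L13 and 30105 in L3. DMSO wells held 4910790 to 8685413 counts (median 6483930). The groups did not overlap, and the mean at 10 µM (30831 ± 5996, SD, n = 4) was 0.463% of the DMSO mean (6656980 ± 932165, n = 32), a 216-fold difference (exact two-sided permutation test over 58905 splits, adjusted p = 3.40e-05 over 6 tests). Wells at 3.33 µM held 132317 to 208739 counts, 5.50-fold more than at 10 µM (exact permutation test over 70 splits, adjusted p = 0.0286). The unadjusted p-values, 1.70e-05 and 0.0286, are the smallest that these splits can give. In lysates of whole wells, fewer cells and less RNA per cell cannot be told apart. A single count was worth 25.4 to 39 counts on a scale of 1000000 per well (CPM) at 10 µM, and whether a count is a read or an RNA molecule is not stated, so intervals and floors cover counting error only.

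Part of the fibroblast marker mRNAs remained in the residual RNA. The marker list for dermal fibroblasts took 4.81%, 4.41%, 3.90% and 3.68% of the counts in K13, K3, L13 and L3, against 6.61 to 8.02% in DMSO (median 7.28%). VIM carried most of this share: without it the other 9 markers took 1.34%, 1.09%, 1.40% and 1.23%, within the 0.723 to 2.63% of DMSO. Of the 10 markers, 6 were detected in all 4 wells. Of 9 tested, 0 rose and 2 fell (22.2%, near the 24.9% of all genes tested that fell). VIM, COL1A1, COL1A2 and DCN, which encode vimentin, the chains of collagen I and the matrix proteoglycan decorin, were among the 6. The other 4 were LUM, PDGFRA, PDGFRB and FAP. Most defining markers of other cell types were at or near 0. The 4 endothelial and 4 immune markers counted in the plate had 0 counts in all 4 wells, which allows 3 counts over the group, or 24.3 CPM. In DMSO these lists held a mean of 0.00034% and 0.00028% of the counts, or 22.6 and 18.9 counts per well. Such levels lie under that floor, so the 0 counts cannot tell these wells from DMSO. MLANA, a melanocyte marker, had 9 counts in L13 and 0 in the other 3 wells, and DES, a muscle marker, had 14 counts in L3 and 0 in the other 3. Of the keratinocyte markers, DSP and KRT17 had 0 counts, and KRT10, which DMSO wells also held (435 ± 49.0 CPM), had 0, 6, 11 and 9. KRT5, KRT14, KRT1, TYR, SOX10, CLDN5 and CD3E were not among the counted genes and were not analysed here.

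Depth decides how many genes are seen, so every well was thinned at random, without replacement, to the 25635 counts of the shallowest well. At this depth 2148 genes were detected in K13, 2602 in K3, 2285 in L13 and 2207 in L3. DMSO wells thinned to the same depth showed 5175 to 5595 genes (median 5367), and wells at 3.33 µM showed 2860 to 3211. The 10 µM wells were thus below both groups without overlap (2310 ± 202 against 5371 ± 104 in DMSO and 3034 ± 157 at 3.33 µM; exact permutation tests, adjusted p = 3.40e-05 and 0.0286). Without thinning, the means were 2428 and 13916 genes at 10 µM and in DMSO.

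The counts were also more concentrated than in DMSO. At equal depth 121, 152, 142 and 117 genes held 50% of the counts in K13, K3, L13 and L3, against 211 to 295 genes in DMSO and 78 to 93 at 3.33 µM. The mean at 10 µM, 133 ± 16.8 genes, lay between DMSO (241 ± 21.9) and 3.33 µM (83.2 ± 6.70) and was apart from both (exact permutation tests, adjusted p = 3.40e-05 and 0.0286). Genes seen with a single count numbered 656 ± 43.1 at 10 µM and 2433 ± 57.8 in DMSO.

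**Figure D1:**
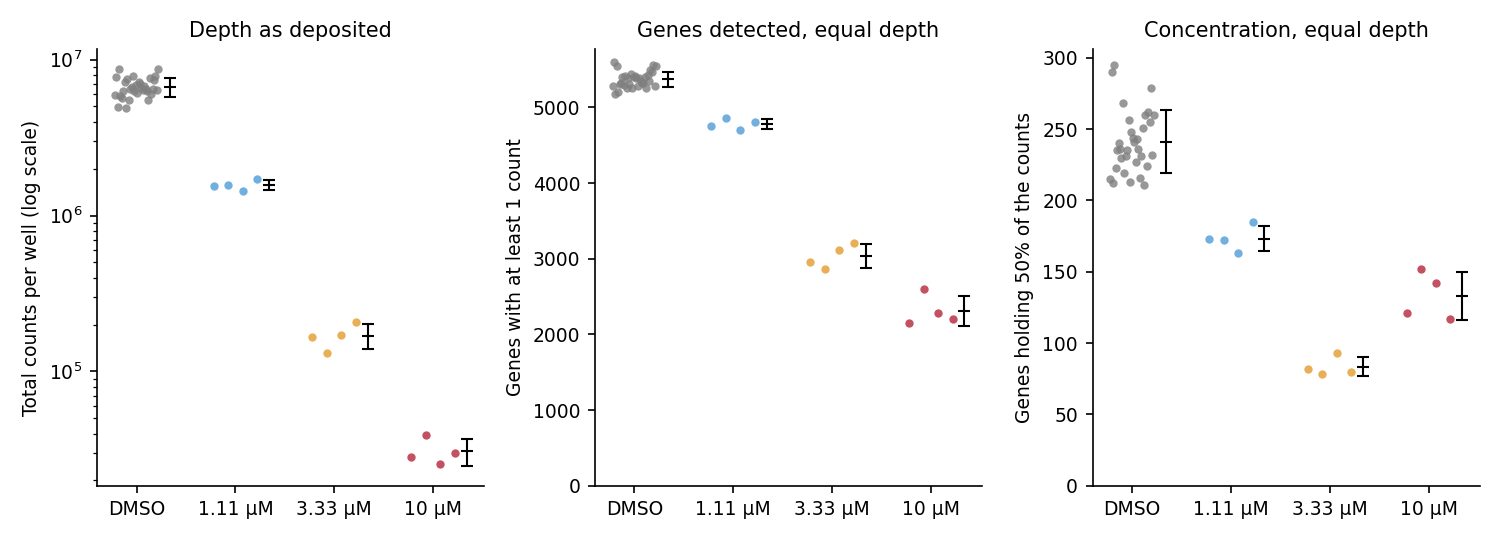
Total counts per well (log axis), genes with at least 1 count and genes holding 50% of the counts, the latter both after thinning to 25635 counts, for 32 DMSO wells and 4 wells at each of 1.11, 3.33 and 10 µM. Points are wells and the bars are mean ± SD; totals and genes detected are lowest at 10 µM, while the concentration is strongest at 3.33 µM.

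Many counts stood in 1 well only. At equal depth 5164 genes had a count in at least 1 of the 4 wells, and 570 of them (11.0%) had a count in every well. Of 1432 genes with 10 or more counts in some well, 373 (26.0%) had 0 counts in the other 3 wells, and the highest such lone value was 88 counts. The same measure gave 47 of 756 genes (6.22%) at 3.33 µM, 0 of 554 at 1.11 µM and 0 of 552 in the 4 DMSO wells that lay in rows K and L of the plate, the rows of the 10 µM wells. Across 2828 genes the correlation between pairs of wells (Pearson's r of log values at equal depth, a description across genes that share the same libraries) was 0.329 to 0.378 at 10 µM, 0.661 to 0.702 at 3.33 µM and 0.788 to 0.793 among those DMSO wells. A gene seen in 1 well only is therefore given below by its wells and not by its mean.

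The more abundant a transcript was in DMSO, the more often it was seen in every well at 10 µM. Of 117 genes with a mean of 1000 CPM or more in DMSO, 112 (95.7%) were seen in all 4 wells at equal depth, and 0 were missing from all 4. The share fell to 97 of 125 genes between 500 and 1000 CPM, 158 of 456 between 200 and 500, 106 of 847 between 100 and 200 and 56 of 1503 between 50 and 100. The same-row DMSO wells showed 117, 125, 453, 735 and 652 of the same genes in every well. Of the 1503 genes in the lowest class, 467 were missing from all 4 wells at 10 µM and 6 from the 4 DMSO wells.

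**Figure D2:**
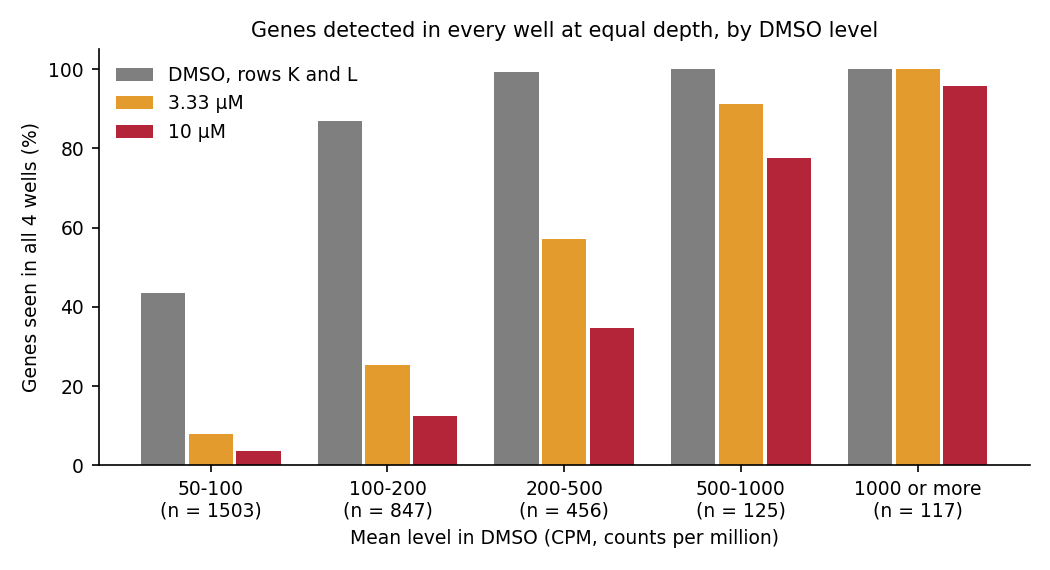
Percent of genes with at least 1 count in all 4 wells after thinning to 25635 counts, by mean level in DMSO in CPM, for the 4 DMSO wells in rows K and L, the 4 wells at 3.33 µM and the 4 wells at 10 µM. In the class of 1000 CPM or more the bars are 100%, 100% and 95.7%, and between 100 and 200 CPM they are 86.8%, 25.4% and 12.5%.

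The 10 genes highest in DMSO took 14.1 to 16.0% of the counts at 10 µM, 16.3 to 19.9% in DMSO and 19.6 to 19.9% at 3.33 µM. Of the 50 highest in DMSO, 37 were also among the 50 highest at 10 µM, and all 50 were detected in all 4 wells. Among the genes with the highest mean CPM at 10 µM were VIM, EEF1A1, S100A6, FTL, LGALS1, TMSB4X, RPLP1, RPS19, RPS14, ACTB and S100A10. They encode vimentin, the elongation factor eEF1A1, the small calcium-binding proteins S100A6 and S100A10, ferritin light chain, galectin 1, thymosin beta 4, 3 ribosomal proteins and beta actin.

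Shares of counts were tested gene by gene with the quasi-likelihood method of edgeR on counts scaled by library total. A gene was tested where the mean of the 2 group means was at least 50 CPM, and called where the Benjamini-Hochberg adjusted p was under 0.05. Of 2828 genes tested, 930 were higher at 10 µM (32.9%) and 705 lower (24.9%). Of the 930, 266 had counts in 1 well only, and 117 lay above the DMSO median in all 4 wells. Of the 705, 537 lay below the DMSO median in all 4 wells and 121 had 0 counts in all of them. The filter itself sets part of these numbers: 443 of the 930 had a DMSO mean under 50 CPM and 477 of the 705 had a 10 µM mean under it.

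The number of calls depended on how the spread between wells was taken. A limma voom fit that gives each group its own variance, chosen after the uneven wells had been seen, called 82 genes higher (2.90%) and 33 lower (1.17%), of which 82 and 32 were among the edgeR calls. With only those 4 same-row DMSO wells as controls, edgeR called 64 higher and 193 lower. Scaling moved the balance: higher genes were 56.9% of the calls with library totals, 49.1% with DESeq2 size factors and 35.7% with TMM, which lowered the median log2 change of all genes from 0.22 to -0.38, a shift of -0.60. A description with no model gave a narrower set, in which all 4 wells lay outside the range of all 32 DMSO wells at equal depth: 35 genes above (1.24%) and 86 below (3.04%). All 35 and all 86 were edgeR calls in that direction, and 29 and 19 were voom calls. These genes were picked from the same counts, so this overlap was close to fixed in advance and is no support. Some of those above, such as KCNJ2, PRELP, BAP1 and RPS6KB2, had a DMSO mean under 50 CPM and were tested only through their 10 µM level. Each gene below is given with its wells, and a gene is said to have risen or fallen only where edgeR called it against all 32 DMSO wells. With the same-row DMSO wells alone, 29 of the genes named here or among the closing observations lost their call, among them HMOX1 (adjusted p = 0.16), NQO1 (0.0753), TXNRD1 (0.149), MT-CO3 (0.0753), CXCL12 (0.0506), ITGB1 (0.0869), PABPC1 (0.107), CCN1 (0.208), HSPB1 (0.23), NACA (0.237), RPL7A (0.224) and TMSB4X (0.282).

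**Figure D3:**
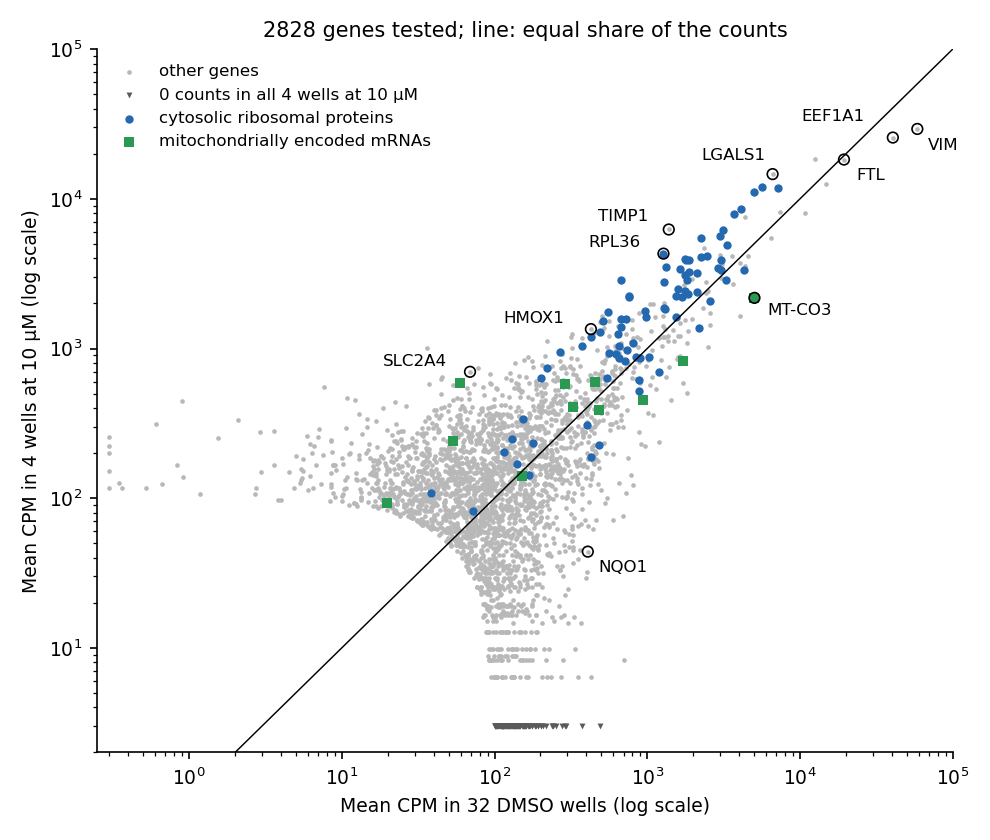
Mean CPM in 4 wells at 10 µM against mean CPM in 32 DMSO wells (log axes) for 2828 genes, with cytosolic ribosomal protein mRNAs as blue circles and mitochondrially encoded mRNAs as green squares. Genes with 0 counts in all 4 wells are triangles drawn at 3 CPM, 5 genes under 0.3 CPM in DMSO are drawn at that value, and the line marks equal shares; most ribosomal protein mRNAs lie above it, and VIM and EEF1A1 below.

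Ribosomal protein mRNAs gained share in every well. They took 20.9%, 19.1%, 17.6% and 22.1% of the counts in K13, K3, L13 and L3, against 10.5 to 13.2% in DMSO (median 12.2%), with no overlap. Of 80 cytosolic ribosomal protein genes tested, 57 rose (71.25%) and 7 fell (8.75%), beside 32.9% and 24.9% of all genes tested. Their median log2 change was 0.72 against 0.22 over all genes tested, and 76 were detected in all 4 wells. With TMM 29 rose and 19 fell (median 0.11), and the median stood 0.50 above that of all genes with library totals and 0.49 above it with TMM. The voom fit called 22 higher and 0 lower, the fit with the same-row DMSO wells 20 and 0. Leaving out each well in turn gave 52 to 57 higher and 6 to 7 lower. These mRNAs made up 16 of the 35 genes above all DMSO wells. Genes of this family have many processed pseudogenes, and counts that could belong to either are uncertain.

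RPS19, a protein of the small subunit, had 320, 428, 296 and 314 counts, which became 285, 277, 296 and 276 at equal depth against 102 to 175 in DMSO. The 4 wells were close to each other and all above DMSO, at 11048 ± 502 CPM against 5024 ± 327 (log2 change 1.14 ± 0.05, SE; edgeR adjusted p = 4.62e-21, voom 0.00372). RPL36, of the large subunit, named after its values were seen, had 138, 138, 114 and 132 counts, or 126, 92, 114 and 117 at equal depth against 21 to 54 in DMSO. It rose more (log2 change 1.75 ± 0.08, edgeR adjusted p = 1.95e-22, voom 1.58e-06). RPLP1, of the ribosomal stalk, had 381, 428, 284 and 387 counts and rose by a log2 change of 1.09, and RPS14, of the small subunit, by 1.06. Both lay above all DMSO wells at equal depth and were called by voom (adjusted p = 0.0354 and 0.0406). Not all members rose: RPL7A, of the large subunit, had 83, 156, 100 and 80 counts and fell (log2 change -0.36 ± 0.07, edgeR adjusted p = 6.83e-05; voom 0.559). RPLP0, the stalk's base, had 84, 116, 36 and 125 and was not called (edgeR adjusted p = 0.200).

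**Figure D4:**
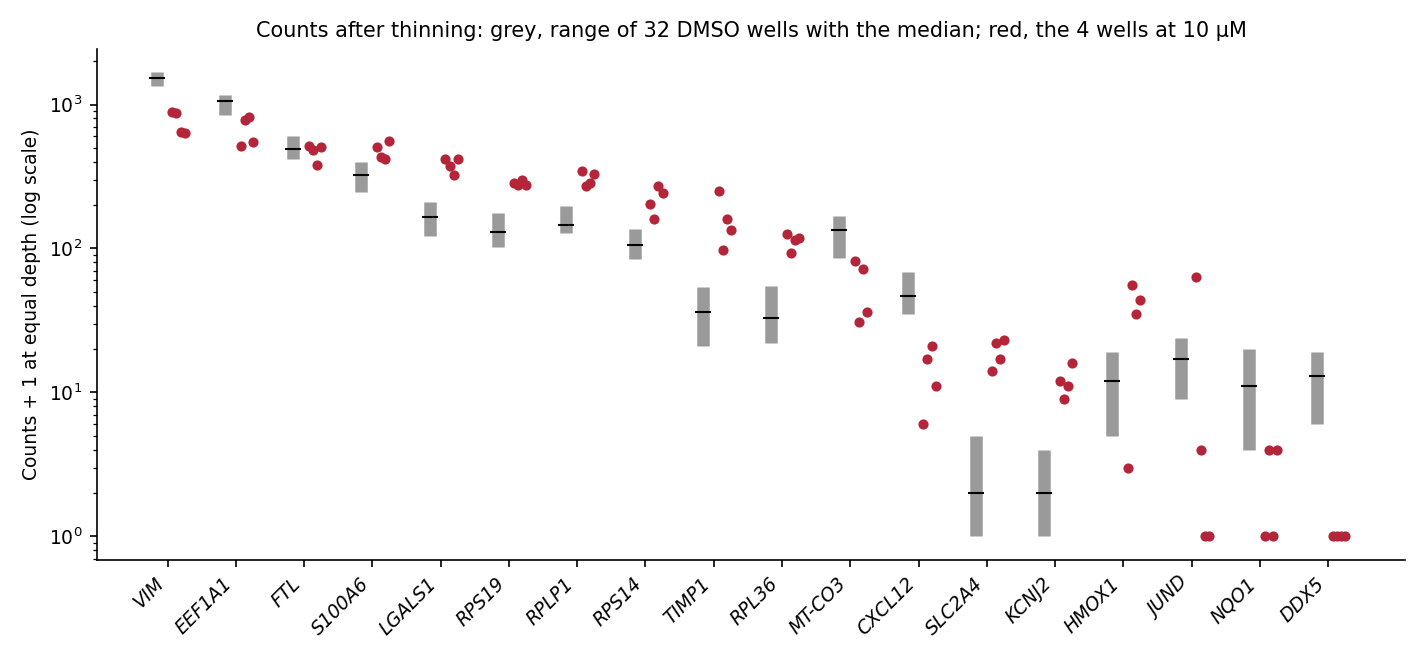
Counts plus 1 (log axis) of 18 genes after thinning to 25635 counts, as the range and median of 32 DMSO wells in grey and the 4 wells at 10 µM in red. RPS19, TIMP1 and SLC2A4 lie above the DMSO range in all 4 wells, VIM and CXCL12 below it, and JUND and HMOX1 are spread over the wells.

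Several other mRNAs rose with counts in every well. TIMP1, the tissue inhibitor of metalloproteinases (chromosome X, 47582313 to 47586789, plus strand, GRCh38), had 272, 153, 158 and 159 counts, or 250, 97, 158 and 133 at equal depth against 20 to 53 in DMSO. All 4 wells were above all DMSO wells, K13 furthest, at 6244 ± 2456 CPM against 1384 ± 268 (log2 change 2.16 ± 0.15, edgeR adjusted p = 1.59e-15, voom 0.0127). LGALS1, galectin 1 (chromosome 22, 37675608 to 37679806, plus strand), had 446, 572, 322 and 472 counts, or 415, 371, 322 and 415 at equal depth against 121 to 208. It rose from 6622 ± 490 to 14645 ± 1507 CPM (log2 change 1.15 ± 0.06, edgeR adjusted p = 4.97e-20, voom 0.0223). S100A6 had 555, 668, 415 and 639 counts and rose by 0.56 (edgeR adjusted p = 4.02e-10, voom 0.488), although with TMM the value was -0.06 and not called. SSR4, of the translocon-associated complex of the endoplasmic reticulum, had 29, 19, 48 and 41 counts and rose by 1.86 ± 0.17 (edgeR adjusted p = 4.57e-12, voom 0.00185). COL6A2, a chain of collagen VI, and ELOB, the elongin B subunit, both named after their values were seen, had 62, 53, 37 and 49 and 43, 47, 43 and 49 counts. They rose by 1.69 and 1.60, above all DMSO wells, and the voom fit called ELOB (adjusted p = 0.000103) and not COL6A2 (0.330).

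The most abundant cytoskeletal mRNA lost share. VIM (chromosome 10, 17228259 to 17237593, plus strand) had 978, 1305, 642 and 737 counts, or 892, 866, 642 and 630 at equal depth against 1353 to 1670 in DMSO. All 4 wells were below all DMSO wells, at 29336 ± 5325 CPM against 58744 ± 3559 (log2 change -1.0 ± 0.06, edgeR adjusted p = 6.99e-17; voom 0.429). ACTB had 211, 373, 159 and 285 counts and was not called (log2 change 0.14, edgeR adjusted p = 0.0579; -0.46 with TMM). TMSB4X and S100A10 fell by 0.22 and 0.42, within the DMSO range in some wells. The 32 listed cytoskeletal and contractile genes together took 11.4 to 12.7% of the counts against 12.1 to 14.5% in DMSO. Without VIM the others took 8.85 to 10.2% against 6.70 to 8.22%, above all DMSO wells. Of 30 tested 14 rose (46.7%) and 8 fell (26.7%), beside 32.9% and 24.9% of all genes tested (5 and 14 with TMM). CAV1, which coats caveolae at the plasma membrane, and ITGB1, the integrin beta 1 chain, both named after their values were seen, had 67, 39, 57 and 30 and 3, 1, 1 and 6 counts. They fell by 1.32 and 2.56 on the log2 scale, both below all DMSO wells, and the voom fit called CAV1 (adjusted p = 0.0409) and not ITGB1 (0.340).

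mRNAs of translation factors did not follow those of ribosomal proteins. They took 3.28%, 4.24%, 4.72% and 3.07% of the counts, all below the 4.89 to 6.19% of DMSO. Without EEF1A1 the others took 0.983 to 1.53% against 1.48 to 1.76%, with L13 within the DMSO range. Of 19 tested, 2 rose (10.5%) and 9 fell (47.4%), beside 32.9% and 24.9% of all genes tested. Their median log2 change was -0.60. With TMM 0 rose and 14 fell, and the voom fit called 0 and 1. EEF1A1, which brings aminoacyl-tRNA to the ribosome, had 559, 1189, 818 and 629 counts, or 517, 775, 818 and 544 at equal depth against 851 to 1171. It fell (log2 change -0.66 ± 0.07, edgeR adjusted p = 1.17e-09; voom 0.678), below all DMSO wells. NACA, of the nascent polypeptide-associated complex, fell by 0.60 with 55, 57, 66 and 27 counts. PABPC1, the poly(A)-binding protein, named after its values were seen, had 3, 40, 9 and 27 counts and fell by 1.46 (edgeR adjusted p = 2.27e-08; voom 0.140).

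Collagen and matrix mRNAs as a list were not set apart. Their share was 2.14 to 3.21% at 10 µM and 1.27 to 4.03% in DMSO. Of 21 tested 3 rose (14.3%) and 4 fell (19.0%), beside 32.9% and 24.9% of all genes tested. COL1A1 had 139, 182, 64 and 137 counts (log2 change 0.23, edgeR adjusted p = 0.593), COL1A2 44, 75, 104 and 100 (-0.45, 0.242) and DCN 182, 108, 109 and 94 (-0.16, 0.599), and none of the 3 was called. DMSO wells themselves spread widely for these genes, 3569 ± 1486 CPM for COL1A1. CXCL12, a chemokine secreted by fibroblasts, named after its values were seen, had 5, 25, 20 and 13 counts, or 5, 16, 20 and 10 at equal depth against 34 to 68. It fell by 1.83 (edgeR adjusted p = 2.01e-08; voom 0.411), below all DMSO wells.

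Mitochondrially encoded mRNAs, made inside the organelle, took a share that overlapped that of DMSO. It was 0.670%, 0.429%, 0.831% and 0.671% in K13, K3, L13 and L3, against 0.600 to 1.25% in DMSO, 0.0680 to 0.196% at 3.33 µM and 0.0143 to 0.0265% at 1.11 µM. The counts behind these shares differed far less between doses: 189, 169, 213 and 202 at 10 µM, 113 to 335 per well at 3.33 µM and 245 to 394 at 1.11 µM, while total counts differed 50.8-fold between 1.11 and 10 µM. Whether these counts came from the wells' own cells was not tested. Of 11 of the 13 genes tested against DMSO, 4 rose (36.4%) and 3 fell (27.3%), near the 32.9% and 24.9% of all genes tested. With TMM 3 rose and 4 fell, and the voom fit called 0 and 0. MT-CO3, a subunit of cytochrome c oxidase, had 93, 47, 71 and 44 counts and fell by 1.24 ± 0.21 (edgeR adjusted p = 3.41e-06; voom 0.660), below all DMSO wells at equal depth. MT-CO1 and MT-CO2, of the same enzyme, fell by 1.09 and 1.12, and MT-ND1, of complex I, was not called (0.40, edgeR adjusted p = 0.211; -0.20 with TMM). Of 32 nuclear genes of the respiratory chain, 4 rose (12.5%) and 4 fell (12.5%), beside 32.9% and 24.9% of all genes tested (0 and 12 with TMM).

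NRF2 targets as a list held 2.27 to 2.64% of the counts, within the 2.30 to 2.83% of DMSO except in L13. FTL carried most of this share. Without FTL the others took 0.472%, 0.749%, 0.796% and 0.465% in K13, K3, L13 and L3, against 0.605 to 0.692% in DMSO. K3 and L13 were thus above all DMSO wells, and K13 and L3 below them. Of 20 targets tested, 5 rose (25.0%) and 7 fell (35.0%), beside 32.9% and 24.9% of all genes tested. With TMM 1 rose and 12 fell, and the voom fit called 0 and 1. HMOX1, which breaks down heme, had 2 counts in K13 but 92, 34 and 50 in the other 3 wells, and rose to 1348 ± 949 CPM against 428 ± 55.4 in DMSO (log2 change 1.70 ± 0.23, edgeR adjusted p = 4.55e-08). K13 lay below the DMSO range and the others above it at equal depth, and the voom fit did not call the gene (adjusted p = 0.270). NQO1, a quinone reductase, had 0, 3, 0 and 3 counts and fell (44.0 ± 51.6 against 408 ± 42.1 CPM; log2 change -3.07 ± 0.35, edgeR adjusted p = 1.38e-09, voom 0.0331). TXNRD1, thioredoxin reductase, had 1, 6, 0 and 0 counts and fell by 2.53 (edgeR adjusted p = 1.88e-06; voom 0.103). FTL had 562, 746, 378 and 592 counts and FTH1 20, 18, 43 and 6; these ferritin chains were not called (edgeR adjusted p = 0.25 and 0.0515). GCLM, of glutathione synthesis, had 4 counts in L13 and 0 elsewhere and was not called (edgeR adjusted p = 0.209), and SRXN1 had 0 counts in all 4 wells and in all DMSO wells.

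Stress lists gave few even changes. Heat shock genes took 0.522 to 0.926% of the counts against 0.517 to 0.594% in DMSO and 5.34 to 7.77% at 1.11 µM. Of 16 tested, 5 rose (31.2%, near the 32.9% of all genes tested) and 2 fell, with 0 voom calls. HSPB1, a small heat shock protein, had 46, 104, 53 and 16 counts and rose by 0.97 (edgeR adjusted p = 6.11e-07; voom 0.183). HSPA1A, the inducible HSP70, had 0, 5, 0 and 40 counts and rose by 1.77, but its value was -1.02 without L3. Genes of the integrated stress response took 0.122 to 0.156%, below the 0.164 to 0.197% of DMSO in all 4 wells, but without the member of the highest level the ranges overlapped (0.0603 to 0.116% and 0.0991 to 0.138%). Of 11 tested 1 rose (9.09%) and 3 fell (27.3%), beside 32.9% and 24.9% of all genes tested. Immediate early and short-lived mRNAs took 0.0351 to 0.394% against 0.260 to 0.320%. Without JUND the others took 0.145%, 0.114%, 0.0351% and 0.179% in K13, K3, L13 and L3. All 4 wells were then below the lowest DMSO well (0.203%). Of 10 tested from the whole list, 2 rose (20.0%) and 7 fell (70.0%), beside 32.9% and 24.9% of all genes tested. The list's median log2 change was -1.92. With TMM 1 rose and 7 fell, and the voom fit called 0 and 1. Among them JUND had 70, 5, 0 and 0 counts and was not called, MCL1 had 29 counts in L3 only and was called higher through that well, and ZFP36L1, an mRNA decay factor, had 6, 14, 0 and 0 and fell by 1.07. CCN1, a secreted matricellular protein, had 23, 18, 8 and 10 counts and rose by 1.24 (edgeR adjusted p = 0.000181; voom 0.293).

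The remaining lists were mixed. Histone mRNAs took 0.30 to 0.405% of the counts, above the 0.215 to 0.275% of DMSO in all 4 wells. Without H3-3A, a replacement histone, the ranges overlapped (0.174 to 0.279% and 0.145 to 0.185%). Of 10 tested, 4 rose and 1 fell (3 and 2 with TMM), with 0 voom calls, beside 32.9% and 24.9% of all genes tested. H1-10 had 3, 39, 0 and 22 counts and H3-3A 60, 8, 18 and 51; the wells with high counts differed between these 2 genes. Of the other lists, 7 and 5 of 20 proteasome subunits, 5 and 1 of 13 endoplasmic reticulum folding genes, 3 and 1 of 10 cell cycle genes, 3 and 4 of 12 cholesterol synthesis genes, 2 and 1 of 9 glycolysis genes, 3 and 3 of 11 interferon and antigen presentation genes and 1 and 2 of 7 p53 targets rose and fell. Several of these counts lie near the 32.9% and 24.9% of all genes tested, as for the proteasome (35.0% and 25.0%), and say nothing particular of the lists. GAPDH, of glycolysis, had 95, 147, 80 and 101 counts and was not called (log2 change 0.16, edgeR adjusted p = 0.0571). MT2A, a metallothionein, had 6, 26, 9 and 41 counts and rose by 1.36 (voom adjusted p = 0.193).

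Some mRNAs that were rare in DMSO were seen in every well. By the naming rule the 12 largest rises with all 4 wells above the DMSO median were SPINT2, SUPT5H, CFAP251, SLC2A4, KCNJ2, HEPACAM, SUPT20HL2, SH2B1, ARID5A, PRELP, RPS6KB2 and BAP1, with log2 changes of 3.00 to 4.06. Apart from SUPT5H and SLC2A4 they had a DMSO mean under 50 CPM and were tested only through their level at 10 µM. Those genes thus had to differ, and their values are a description. All 12 were picked by the size of the change, so their p-values, also those of SUPT5H and SLC2A4, are a description and no support. SLC2A4, which encodes the insulin-responsive glucose transporter GLUT4, had 14, 32, 16 and 26 counts, or 13, 21, 16 and 22 at equal depth against 0 to 4 in DMSO. It stood at 699 ± 170 CPM against 69.1 ± 11.1 in DMSO and 305 at 3.33 µM (log2 change 3.35 ± 0.19, edgeR adjusted p = 1.47e-18, voom 3.84e-07). KCNJ2, an inward-rectifier potassium channel, had 11, 10, 10 and 16 counts against 0 to 3 in DMSO at equal depth. PRELP, a small leucine-rich proteoglycan, had 12, 17, 6 and 16, and BAP1, a nuclear deubiquitinase, 5, 5, 8 and 8. SPINT2, an inhibitor of serine proteases, had 6, 2, 4 and 5. In others K3 was well above the rest: SUPT5H had 10, 53, 2 and 18 counts and ARID5A 2, 23, 1 and 2. The mean of ARID5A rested mainly on K3, while K13 and L3 also added to that of SUPT5H. With the same-row DMSO wells as controls CFAP251, ARID5A and RPS6KB2 were not called (edgeR adjusted p = 0.0793, 0.0691 and 0.0506).

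The 12 falls named by the rule, which ranks fitted log2 changes, all had 0 counts in the 4 wells, where the fitted size is no measurement and the order follows the DMSO level. They were DDX5, RTRAF, MYOF, ELAVL1, SFPQ, SEC31A, IFI16, RAB11A, CAPZA2, HNRNPM, STOML2 and ACKR4, at 202 to 489 CPM in DMSO. All 12 were tested through their DMSO level alone and were picked by the size of the change. Their p-values, by edgeR or voom, are therefore a description and no support. Against a floor of 3 counts over the 4 wells, they were at least 8.29-fold (ACKR4) to 20.1-fold (DDX5) lower. DDX5, an RNA helicase, had 5 to 18 counts in every DMSO well at equal depth (edgeR adjusted p = 1.09e-13, voom 0.00611). ELAVL1, SFPQ and HNRNPM, which like DDX5 encode RNA-binding proteins, were at least 11.9-, 11.4- and 8.97-fold lower. The voom fit called DDX5, RTRAF, MYOF, ELAVL1, SFPQ and STOML2 and not the other 6. KDELR2, a retention receptor of the endoplasmic reticulum, named after its values were seen, had 1 count in L3 and 0 elsewhere against 8 to 30 in DMSO at equal depth, a ratio of 87.5 with a counting interval of 15.7 to 3456.

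Transcript length and base composition of the genes that stood apart are given as a description. Lengths and GC contents are those of the longest protein-coding transcript of each gene, or the longest of any kind where there is none, in GENCODE release 29, and 2826 of 2828 genes had them. The 35 genes above all DMSO wells had a median length of 1391 bases and a median GC content of 56.5%, the 86 below 3228 bases and 45.1%, and all genes tested 2879 bases and 48.3%. Without the ribosomal proteins the 19 others above had 1419 bases and 57.1%. Transcripts of up to 1000 bases took 18.8 to 22.0% of the tested genes' counts at 10 µM and 14.4 to 16.8% in DMSO. Of 226 such genes 98 rose (43.4%) and 31 fell (13.7%), beside 32.9% and 24.9% of all genes tested. Without ribosomal proteins the shares were 12.7 to 13.8% and 10.4 to 12.0%, again without overlap, and of 200 genes 80 rose (40.0%) and 29 fell (14.5%). Those of 2000 to 3000 bases took 18.6 to 20.1% against 22.3 to 23.7%. There was no steady trend with length: transcripts over 8000 bases took 3.06 to 4.43% against 2.93 to 4.15%, and among genes with a mean of at least 200 CPM this class had the highest median log2 change (0.68, over 37 genes, against 0.66 up to 1000 bases). Across 258 genes with a mean of at least 500 CPM, Spearman's rho with the log2 change was -0.17 for length and 0.21 for GC content, as a description over genes that share the same libraries. The role of length or composition in any single change was not tested.

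Wells at 3.33 µM, the next dose down, correlated most closely with those at 10 µM. For the same 258 genes, the log of the mean count at equal depth, with a small offset added, was compared between groups. The correlation of 10 µM was r = 0.822 (rho = 0.773) with 3.33 µM, 0.757 (0.644) with DMSO and 0.630 (0.595) with 1.11 µM. Tested directly against the 4 wells at 3.33 µM, 1 of 2563 genes was higher at 10 µM (0.039%) and 4 were lower (0.156%) by edgeR, and 388 had an unadjusted p under 0.05. LGALS1 was the gene higher (322 to 572 counts per well at 10 µM and 1192 to 1615 at 3.33 µM, or 14645 against 8090 CPM; log2 change 0.86 ± 0.17, edgeR adjusted p = 0.0249). This call was lost with size factors (0.0694), with TMM (0.665), with no filter on low values (0.0797) and without L3, K14, L14 or L4 (0.0556 to 0.129). VIM, EEF1A1, RPL7A and RPLP0 were lower, by -0.96 ± 0.12, -0.94 ± 0.14, -1.12 ± 0.23 and -1.34 ± 0.28 (edgeR adjusted p = 6.01e-05, 0.000611, 0.0349 and 0.0349). VIM stood at 57204 ± 2032 CPM at 3.33 µM, near its level in DMSO and above its level at 10 µM. At 1.11 µM it stood at 43372 ± 4361 CPM, and the highest well (49639) was under the lowest DMSO well (52451). A VIM share below DMSO was thus seen at 1.11 µM too. The DESeq2 Wald test called 25 higher and 24 lower, and an edgeR fit of all 72 wells 935 and 447. Leaving out L13 gave 9 calls, and leaving out wells K14, L14 or L4 at 3.33 µM gave 2 each, both lower. Those 2 were VIM and EEF1A1, while RPL7A and RPLP0 were lost in each of these 3. RPL7A was also lost by voom (adjusted p = 0.0811), with no filter (edgeR 0.106) and with the first thinning (0.0546). Without K13, L3 or K4 it was lost too (0.0601, 0.0674 and 0.101). RPLP0 was also lost with a minimum of 200 CPM (edgeR 0.0670) and without K13 or K3 (0.0601 and 0.115).

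Ribosomal protein mRNAs held 25.4 to 27.0% of the counts at 3.33 µM, more than the 17.6 to 22.1% at 10 µM, with no overlap, and 11.2 to 12.5% at 1.11 µM. Translation factors held 6.20 to 7.44% at 3.33 µM and dermal fibroblast markers 7.21 to 7.79%, both above all wells at 10 µM. Without VIM the fibroblast markers held 1.38 to 2.16% at 3.33 µM and 1.09 to 1.40% at 10 µM, which overlapped. Of the 80 ribosomal protein genes, 0 were higher and 2 lower at 10 than at 3.33 µM by edgeR, with a median log2 change of -0.42 against 0.51 over all genes tested.

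**Figure D5:**
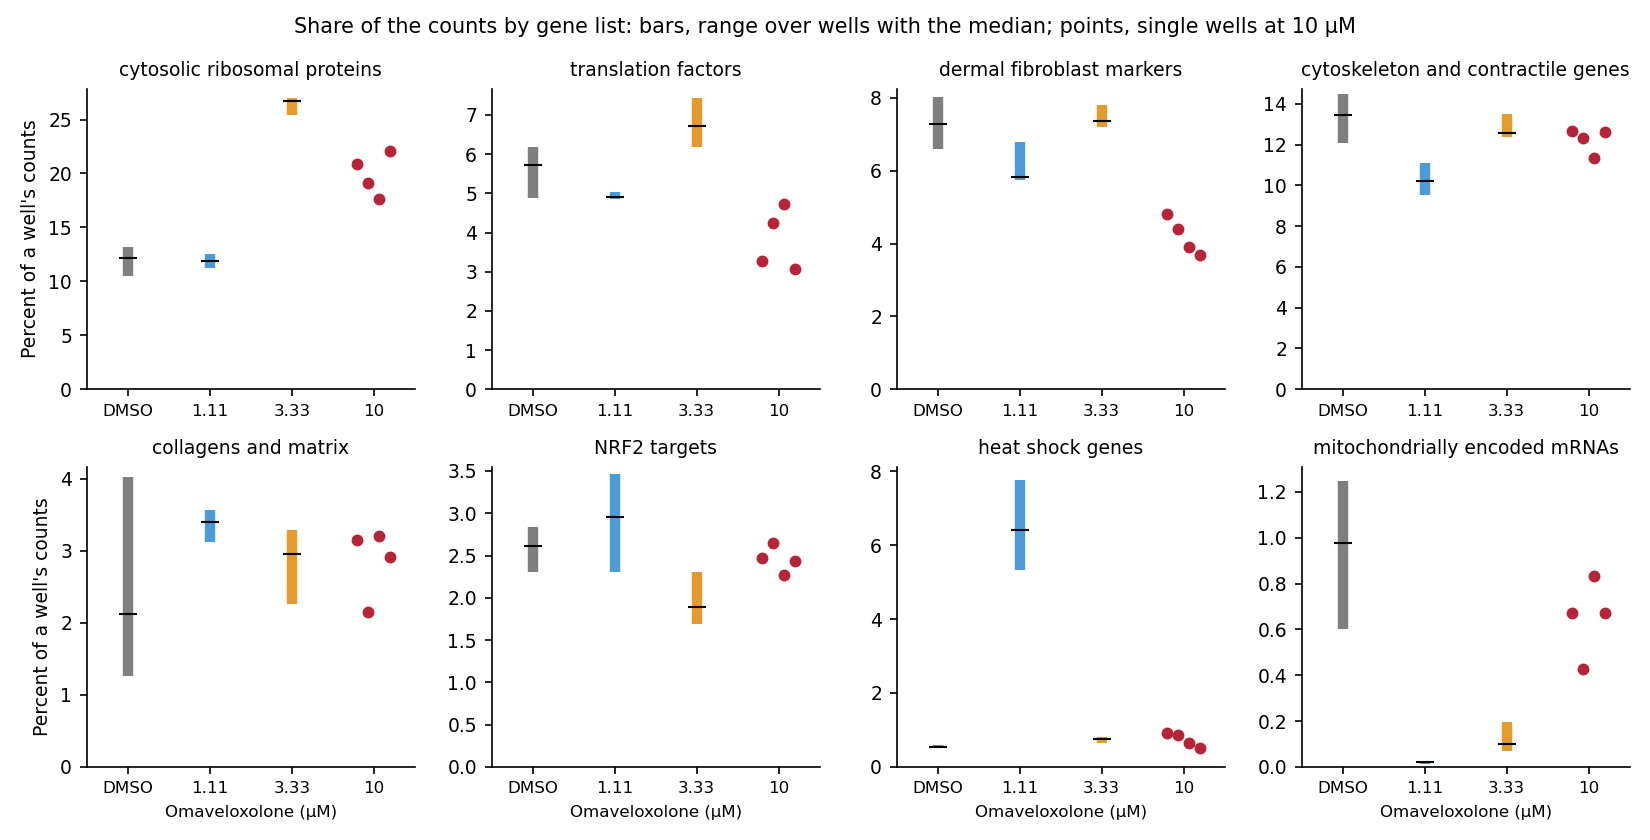
Percent of a well's counts on 8 gene lists in DMSO and at 1.11, 3.33 and 10 µM, as the range over wells with the median for the first 3 groups and single wells at 10 µM. At 10 µM the ribosomal protein share lies above DMSO and below 3.33 µM, the translation factor and fibroblast marker shares lie below all 3, and the mitochondrial share lies far above 1.11 and 3.33 µM.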

How the data were processed

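The deposited table holds counts per gene and well, which the authors made with the tools kallisto and bustools against GRCh38, per the submitters' processing notes. Versions, annotation and collapsing of molecular identifiers are not given in the sources used here. Of 23170 genes, those on the Y chromosome and XIST were left out of all totals and are not reported here, which left 23132, of which 23040 matched GENCODE release 29 (Ensembl release 94), the source of positions, lengths and GC content, and 21313 had a symbol.

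Total counts ran from 25635 to 39396 at 10 µM. Thinning drew counts without replacement with fixed seeds (101 and 202). Fits used edgeR 4.0.16, limma 3.58.1 and DESeq2 1.42.0 in R 4.3.3, with adjusted p by Benjamini-Hochberg over all genes tested. The edgeR fit with library totals and the voom fit were also run on simulated data, with an outcome not reported here. The DESeq2 fit was not. Permutation tests ran in Python 3.11.15 (NumPy 2.4.6, SciPy 1.17.1, pandas 2.3.3). Lists are described by counts, medians and shares, with no test of the list.

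The genes named were the 12 highest at 10 µM, the 12 largest rises and 12 largest falls with all 4 wells on 1 side of the DMSO median, up to 4 members per list with the highest mean level, 11 genes always looked up, of which MALAT1 was not among the counted genes and was not analysed here, and the genes apart between 10 and 3.33 µM. Of the up to 4 per list, those bearing on a list described in the text are given. A gene that the rule names is not reported here. The 14 listed nuclear-retained long RNAs were not analysed here. Members, lists and comparisons were chosen with earlier results of these data known.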

Additional observations from a re-analysis of the deposited data

Results flagged for a closer look

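With 4 wells, a value is set out here where its gap to the nearest other well as a part of the range is above Dixon's 95% limit, which chance passes in about 1 of 20 groups of continuous values. For 6 of the genes the other 3 wells had 0 counts, so the gap equals the range whatever the lone count is, and that rate does not hold for them or for the 2 marker lists. Of 156 sets of 4 wells at 10 µM examined, 16 passed, and the well that stood apart was K13 in 3, K3 in 2, L13 in 6 and L3 in 5, so no well accounted for most of them. In K13 BIRC5, an inhibitor of apoptosis (1064 CPM), H2AZ2, a histone variant (1313 CPM), and JUND, a transcription factor (2483 CPM), were far above the other 3 wells. In K3 ARID5A (584 CPM) and MSMO1, of sterol synthesis (381 CPM), were. In L13 GCLM (156 CPM), MLANA (351 CPM), MTHFD2, of mitochondrial folate metabolism (624 CPM), and RRM2B, a ribonucleotide reductase subunit (858 CPM), were high, COL1A1 was low (2497 CPM), and the melanocyte marker list held 0.0351% of the counts, all of it MLANA. In L3 HSPA1A (1329 CPM), MCL1 (963 CPM), GADD45A, a DNA damage response gene (631 CPM), and DES (465 CPM) were high, and the pericyte or smooth muscle list held 0.0465%, all of it DES. UBE2C, a cell cycle gene with 56, 0, 0 and 17 counts, did not pass the limit.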

How the results depend on the processing

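The totals, the genes detected at equal depth and the genes holding 50% of the counts kept their direction and their exact permutation call against DMSO and 3.33 µM under every alternative run for them. The counts of genes called moved more. Against DMSO, edgeR called 1635 genes, and the count was 257 with only the 4 solvent wells in plate rows K and L, 2998 with filterByExpr, 2765 with a minimum of 20 CPM, 482 with 200 CPM and 2755 with no filter on low values, where fewer or more genes were tested in the last 4. The voom fit called 115, and leaving out each well in turn gave 1623 to 1631. With the replicate number as a block, over the wells numbered 1 to 4 in both groups, 15 were called; the numbers did not pair the wells, since same-numbered wells correlated at -0.037 to 0.026 in their deviations and the own number was the highest in 1 of 4 cases. Against 3.33 µM, edgeR called 5, and the count was 49 by the DESeq2 Wald test, 39 with TMM, 1382 in a fit of all 72 wells, 9 by voom, 30 with a minimum of 20 CPM, 12 with no filter, 8 with a second random thinning, 8 with the replicate block and 2 to 9 leaving out each well.

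Of 79 genes named and tested against DMSO, 64 were called. Changes of sign were as follows on the log2 scale, and their cause was not tested. With TMM they were ACTB -0.46, COL1A1 -0.38, GADD45A -0.018, GAPDH -0.45, H3-3A -0.12, JUND -0.61, MT-ND1 -0.20, MTHFD2 -0.47 and S100A6 -0.056. With size factors they were ACTB -0.086, COL1A1 -0.015, GAPDH -0.078, JUND -0.24 and MTHFD2 -0.10. With DMSO column 23 alone COL1A1 was -0.18. With column 2 alone COL1A2 was 0.028, DCN 0.21 and JUND -0.0095, and with rows K and L DCN was 0.19. By voom they were GADD45A -0.93, H2AZ2 -0.18, H3-3A -0.0019, HSPA1A -0.15, JUND -2.55, MCL1 -1.21 and MTHFD2 -1.23. With the replicate block they were GADD45A -1.44, H2AZ2 -0.29, HSPA1A -0.78, JUND -2.74, MCL1 -2.48, MTHFD2 -1.65 and RRM2B -1.09. Leaving out each well gave DCN -0.46 to 0.0031, FTL -0.13 to 0.0055, GADD45A -3.34 to 1.04, H2AZ2 -0.94 to 1.14, HSPA1A -1.02 to 2.16, JUND -3.56 to 0.43, MCL1 -12.31 to 1.70, MTHFD2 -2.73 to 0.55 and RPLP0 -0.40 to 0.038. The value of MCL1 without L3 is no bound, since the other 3 wells had 0 counts. At 25.4 to 39 CPM per count, a gene under about 100 CPM rests on a few counts in each well, and differences there were often not detectable at this depth.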
